A study of Rattus norvegicus with 12 samples.

Results

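The ventral hippocampus (VH) of the Sprague-Dawley rat was followed over the step from postnatal day 14 (P14) to P28, using 4 of the 12 RNA-seq libraries of a series that also holds the dorsal hippocampus (DH) and P45. The libraries were taken by their labels alone, as the 2 VH libraries of P14 and the 2 of P28, and transcripts were compared across the whole table. The animals of all groups were untreated rats of 1 strain, their sex is not given, and each library is poly-A RNA of tissue dissected from the ventral end, with the CA fields, dentate gyrus and subiculum together. Nothing in the sources says that the libraries of a group came from separate animals, so p-values measure the spread between these libraries, which may be technical. Levels are FPKM (fragments mapped to a transcript, scaled to its length and to the library's mapped total), and every change is a log2 fold change of FPKM + 1, which understates the change of low transcripts. In whole tissue, fewer cells of a type and less RNA per cell cannot be told apart.

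The weeks around weaning are a time of late circuit building in the rodent hippocampus. Oligodendrocytes, the glia that wrap axons in myelin, mature in this period, as do the sodium and potassium channels that set fast firing. Young granule neurons of the dentate gyrus meanwhile lose the tubulins, growth cone proteins and transcription factors of the immature state. The VH is tied to emotional and stress-related behaviour and the DH to spatial learning.

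All 4 VH libraries carried the ventral position. Nr2f2, a transcription factor of ventral and caudal cortex, ranged from 27.7 to 43.2 FPKM in them and from 2.98 to 7.49 FPKM in the DH libraries of the same ages. Cpne2, another ventral marker, ranged from 46.0 to 73.3 FPKM against 10.3 to 20.7 FPKM. The dorsal marker Nts ranged from 3.85 to 16.9 FPKM against 45.6 to 89.8 FPKM, and its VH maximum was in replicate 2 of P14. That library also had the lower summed level of the 15 ventral markers, 360.7 FPKM against 504.5 FPKM in replicate 1 of P14 and 327.2 and 367.9 FPKM at P28. The P14 libraries thus differed in position markers. They differed in myelin transcripts too, with replicate 2 above replicate 1 in 29 of the 34 tested list members (described below). Whether dissection position has a part in that was not tested. The study lists the mapped read pairs of each library, which are not used here. The table gives FPKM without counts, so the number of reads behind each transcript's value is not known. Between 13384 and 13569 transcripts were above 0 in each of the 4 libraries.

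Of 14259 transcripts tested, 183 were higher at P28 and 160 were lower, taking an adjusted p under 0.05 in limma together with a fold change over 1.5 as the call. These are 1.28% and 1.12% of the transcripts tested, and 2.41% together. The median change over all transcripts was 0.00 on the log2 scale, and 5% of transcripts lay above 0.48 and 5% below -0.48. Among the rises, 71 exceeded 2-fold and 11 exceeded 4-fold, against 39 and 1 among the falls. Every one of the 343 called transcripts had P14 and P28 libraries that did not overlap, as did 23.7% (higher) and 23.3% (lower) of all transcripts. A further 10 transcripts differed by over 4-fold but had too wide a spread between libraries to be called. These calls rest on a spread estimated over all 12 libraries. A fit of the 4 VH libraries alone called none, with 323 rises and 289 falls over 1.5-fold at an unadjusted p under 0.05. Leaving out 1 VH library changed both counts, which then included new calls, and both were lowest without replicate 1 of P28. Without replicate 1 of P14 there were 99 rises and 94 falls, and without replicate 2 of P28 there were 95 and 79. In all, 56 of the rises and 41 of the falls were called with each of the 4 left out in turn.

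**Figure D1:**
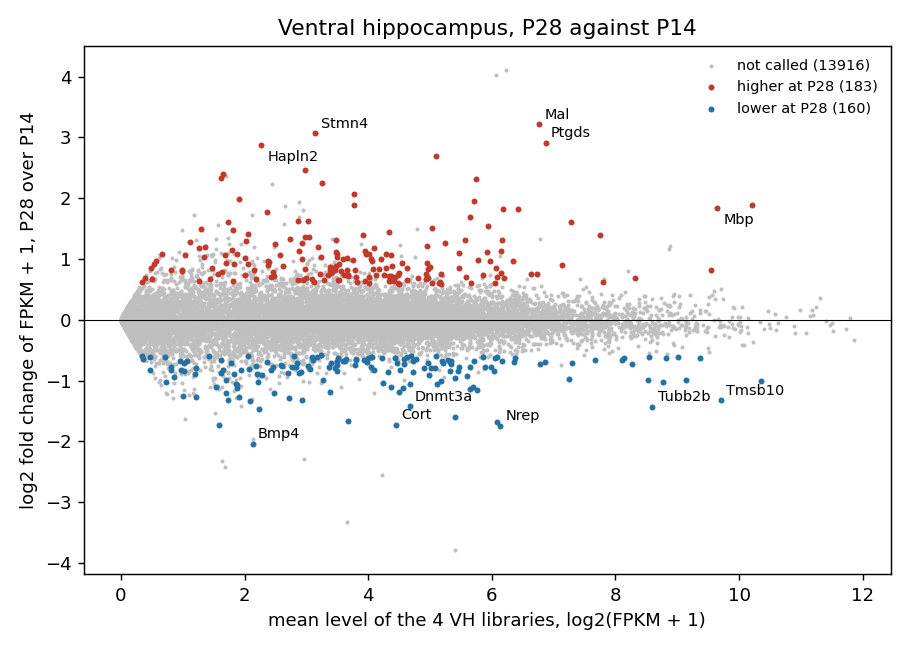
Change from P14 to P28 in the ventral hippocampus against the mean level of the 4 libraries. Each point is 1 of 14259 transcripts, the x axis is log2(FPKM + 1), the y axis is the log2 fold change of FPKM + 1, red marks the 183 transcripts called higher at P28 and blue the 160 called lower. Myelin transcripts (Mal, Mbp) and Ptgds sit at the upper right, and tubulin and other immature neuron transcripts (Tubb2b, Nrep) at the lower right.

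Transcripts of myelinating oligodendrocytes were among the largest rises. Mal, a membrane protein of compact myelin, stood at 13.4 and 28.7 FPKM at P14 and at 228 and 161 FPKM at P28. It rose by 3.22 ± 0.31 (SE) on the log2 scale (limma adjusted p = 0.00247). Hapln2, a link protein of the matrix at nodes of Ranvier, was nearly absent at P14 (0.122 and 0.159 FPKM) and reached 6.60 and 8.27 FPKM at P28, a rise of 2.88 ± 0.19. Ermn, a cytoskeletal protein of the late oligodendrocyte, went from 6.19 and 10.6 FPKM to 57.5 and 58.7 FPKM, a rise of 2.69 ± 0.25. In all 3 both P28 libraries lay far above both P14 libraries, and the call held whichever VH library was left out.

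Upstream sequence is shown for 2 of these leading myelin genes and, for contrast, for 3 of the 5 transcripts with the largest falls among the immature neuron genes described further on. Each is the RefSeq promoter window in the GRCr8 build, 250 bases before to 50 after the annotated start, read 5′ to 3′ along the gene's strand. Capitals mark matches on either strand to 3 short motifs, ACAAAG (a core bound by SOX proteins, among them the oligodendrocyte factor Sox10), TATAAA (the TATA box) and CCAAT (the CCAAT box).
Mal (chr3:135341374-135341673, minus strand): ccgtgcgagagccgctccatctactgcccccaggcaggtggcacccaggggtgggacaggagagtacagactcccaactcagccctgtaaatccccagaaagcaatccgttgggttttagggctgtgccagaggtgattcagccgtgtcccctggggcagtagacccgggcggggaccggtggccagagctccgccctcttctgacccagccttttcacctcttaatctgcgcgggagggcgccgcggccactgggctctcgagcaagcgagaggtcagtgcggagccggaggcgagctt
Hapln2 (chr2:175794389-175794688, minus strand): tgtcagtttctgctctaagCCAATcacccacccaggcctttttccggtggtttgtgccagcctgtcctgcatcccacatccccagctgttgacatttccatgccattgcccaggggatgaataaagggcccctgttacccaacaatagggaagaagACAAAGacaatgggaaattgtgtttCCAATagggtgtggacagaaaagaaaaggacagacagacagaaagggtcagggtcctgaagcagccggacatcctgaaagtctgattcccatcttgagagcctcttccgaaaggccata
Sox11 (chr6:49738745-49739044, minus strand): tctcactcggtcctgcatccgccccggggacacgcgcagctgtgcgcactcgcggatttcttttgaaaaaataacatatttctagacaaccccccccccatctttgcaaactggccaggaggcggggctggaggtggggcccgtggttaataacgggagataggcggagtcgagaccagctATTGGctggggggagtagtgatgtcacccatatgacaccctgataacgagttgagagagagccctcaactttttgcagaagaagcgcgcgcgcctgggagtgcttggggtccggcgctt
Dpysl5 (chr6:31379299-31379598, minus strand): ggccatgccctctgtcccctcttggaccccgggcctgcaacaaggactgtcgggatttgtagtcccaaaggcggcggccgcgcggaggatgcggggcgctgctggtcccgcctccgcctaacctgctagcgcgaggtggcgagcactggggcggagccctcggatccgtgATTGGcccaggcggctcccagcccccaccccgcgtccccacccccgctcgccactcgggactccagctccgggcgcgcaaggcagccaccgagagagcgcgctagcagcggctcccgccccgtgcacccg
Tubb2b (chr17:30952836-30953135, plus strand): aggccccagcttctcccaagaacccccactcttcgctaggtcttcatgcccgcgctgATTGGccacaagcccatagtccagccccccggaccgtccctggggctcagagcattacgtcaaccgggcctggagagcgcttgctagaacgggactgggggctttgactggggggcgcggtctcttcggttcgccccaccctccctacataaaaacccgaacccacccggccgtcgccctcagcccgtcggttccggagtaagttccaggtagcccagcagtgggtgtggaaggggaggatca
The Mal window held none of the 3 motifs, and the Hapln2 window held 1 match to ACAAAG and 2 to CCAAT. The windows of Sox11, Dpysl5 and Tubb2b held 1 CCAAT each, in the reverse orientation ATTGG. Of the 22 myelin genes that rose, 14 had a window in the RefSeq table, with 15 windows in all, and ACAAAG was in 6 of the 15 (40%) against 18.8% of all 33469 windows. Of the 18 immature neuron genes that fell, 14 had a window, also 15 in all, and CCAAT was in 9 of the 15 (60%) against 37.5% of all windows. The other shares lay nearer to or below those of all windows. CCAAT was in 33.3% of the myelin windows, ACAAAG was in 20% of the immature neuron windows, and TATAAA was in 6.67% of both against 14.2% of all. These are letter matches in a short window and a description only.

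The myelin and mature oligodendrocyte list had 36 members, of which 34 were tested. In every list a gene is counted by its transcript with the highest mean over the 12 libraries. All 34 were higher at P28 by any amount, against 49.4% of all transcripts. The test called 22 of them higher and none lower, against 1.28% and 1.12% of all transcripts. The same overall shares apply to the calls of every list below. The list's median change was 1.11 against 0.00 over all transcripts, and 20 members exceeded 2-fold. Libraries of P14 and P28 did not overlap in 32 of the 34, against 23.7% of all transcripts that were higher without overlap. Of the 22 calls, 14 were kept whichever VH library was left out, and the count ranged from 14 (without replicate 1 of P28) to 23 (without replicate 2 of P14).

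Mobp, Mog and Mag, proteins of the sheath, were each called higher. Mobp, a small basic protein of compact myelin, went from 25.8 and 37.1 FPKM at P14 to 122 and 102 FPKM at P28, a rise of 1.82 ± 0.18. Mog, on the outer surface of the sheath, went from 24.2 and 37.3 FPKM to 91.0 and 88.7 FPKM, a rise of 1.55 ± 0.19. Mag, which faces the axon, rose less, by 0.97 ± 0.18 (adjusted p = 0.0267), from 46.6 and 61.5 FPKM to 115 and 97.2 FPKM. In each of these 3 genes the P14 library of replicate 2 was above that of replicate 1, and so it was in 29 of the 34 list members, while at P28 replicate 2 was the higher one in 4 of 34. The call of Mag was lost without replicate 1 of P14 or either P28 library (adjusted p up to 0.138), while Mobp and Mog were called in every case.

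Junction proteins, receptors and enzymes of the oligodendrocyte were among the other members. Cldn11, which forms the tight junctions between myelin layers, rose by 1.61 ± 0.21, and the gap junction protein Gjb1 rose by 1.15 ± 0.14. Fa2h, which makes the 2-hydroxylated lipids of myelin, rose by 1.40 ± 0.17. Ugt8, which makes galactosylceramide, stood at 25.7 and 47.8 FPKM at P14 and 78.2 and 61.3 FPKM at P28, and was not called (0.96 ± 0.27, adjusted p = 0.0865). Opalin, a membrane protein of the sheath's inner loops, rose by 2.07 ± 0.34 from 3.45 and 5.10 FPKM to 24.7 and 17.6 FPKM. Lpar1, a lysophosphatidic acid receptor, rose by 1.90 ± 0.28, and Enpp2, the enzyme that makes its ligand, by 1.22 ± 0.27. Gjb1 and Fa2h were called whichever VH library was left out, and Cldn11 was lost without replicate 1 of P28 (adjusted p = 0.0564). Opalin, Lpar1 and Enpp2 were lost without replicate 1 of P14 or either P28 library (adjusted p up to 0.0991, 0.0723 and 0.176).

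Among the members that were not called were 3 transcription factors of the lineage. Sox10, present from precursor to mature cell, was at 18.2 and 19.6 FPKM at P14 and 21.6 and 20.1 FPKM at P28, a difference of 0.13 ± 0.11 (adjusted p = 0.569). Myrf, needed to start and keep the myelin programme, was at 10.4 and 11.4 FPKM and then 17.0 and 13.3 FPKM (0.43 ± 0.13, adjusted p = 0.0932). Nkx6-2, a homeodomain factor of myelinating cells, was at 4.32 and 5.84 FPKM and then 13.3 and 9.51 FPKM (1.02 ± 0.28, adjusted p = 0.0784). Bcas1, a marker of cells that have just begun to myelinate, differed by 0.03 ± 0.13 and was not called either.

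**Figure D2:**
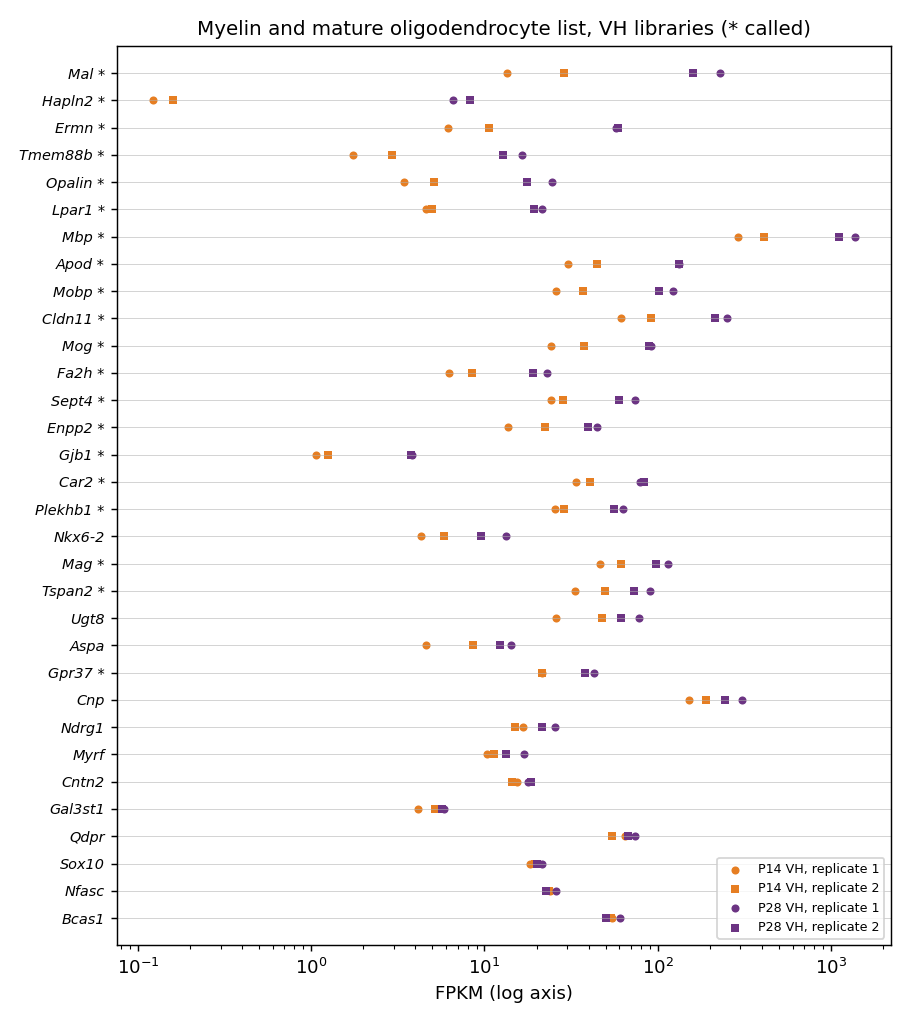
Level of 32 of the 34 tested members of the myelin list in each VH library, on a log axis of FPKM. Circles are replicate 1 and squares replicate 2, orange is P14 and purple P28, genes are ordered by their change, and an asterisk marks the 20 of these called higher. The gap between the ages narrows from Mal at the top to Sox10, Nfasc and Bcas1 at the bottom, and the orange square is to the right of the orange circle in 27 of the 32 genes.

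Oligodendrocyte precursors gave a different picture. Of 13 members tested none rose and 1 fell, and the median was -0.25. The member that fell was Bmp4, a secreted factor that newly formed oligodendrocytes make and that holds back their differentiation, from 3.88 and 8.31 FPKM at P14 to 0.930 and 0.392 FPKM at P28. It had the largest fall of all calls, -2.04 ± 0.34 (adjusted p = 0.0172), and was not called without replicate 1 or replicate 2 of P28 (adjusted p up to 0.103). Pdgfra, the growth factor receptor that marks precursors, was at 29.4 and 28.3 FPKM and then 22.4 and 25.2 FPKM, a difference of -0.27 ± 0.07 that missed the threshold (adjusted p = 0.0634). Cspg4 (NG2), the surface proteoglycan of the same cells, differed by -0.25 ± 0.13. Among 24 tested enzymes of cholesterol synthesis, the lipid that myelin needs most, none was called. Hmgcs1 stood at 210 and 244 FPKM at P14 and 167 and 166 FPKM at P28, and its difference of -0.44 ± 0.09 had an adjusted p of 0.0273 but stayed under 1.5-fold.

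The immature neuron and neurogenesis list held more falls than any other of the 45 lists. Of 30 members tested, 18 fell and none rose, against 1.12% of all transcripts called lower and 1.28% called higher. By any amount 29 were lower at P28, against 49.1% of all transcripts. The median was -0.73. Of the 18 calls, 14 were kept whichever VH library was left out, and the count ranged from 14 to 16.

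Of the list's largest falls, 4 were in genes of growth cones and the cytoskeleton of young neurons. Nrep, a protein of regenerating and young neurons, went from 92.8 and 122 FPKM to 31.0 and 31.2 FPKM, a fall of -1.74 ± 0.17 (adjusted p = 0.00247). Dpysl3, which links semaphorin signals to microtubules, went from 106 and 99.7 FPKM to 28.7 and 34.03 FPKM (-1.69 ± 0.12), and its relative Dpysl5 from 68.4 and 57.4 FPKM to 19.0 and 20.9 FPKM (-1.60 ± 0.10). Tubb2b, the beta-tubulin of migrating and growing neurons, went from 584 and 542 FPKM to 221 and 196 FPKM, a fall of -1.43 ± 0.07 with the lowest adjusted p among these genes (0.00039). In each of these 4 genes both P28 libraries lay far below both P14 libraries, and the call held whichever VH library was left out. Tuba1a, Stmn2 and Gap43 fell by -1.01 ± 0.12, -0.98 ± 0.05 and -0.99 ± 0.12. Tubulin genes are near copies of each other, so reads may be shared between them and their single values are uncertain.

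Among factors and markers of newborn neurons, Sox11, Dcx, Igfbpl1 and Calb2 were called lower and Neurod1 was not. Sox11, a transcription factor of young neurons, stood at 16.3 and 20.3 FPKM at P14 and 4.38 and 5.84 FPKM at P28, a fall of -1.66 ± 0.15 (adjusted p = 0.00187). Dcx (doublecortin), the standard marker of newborn neurons, went from 21.2 and 27.7 FPKM to 11.03 and 11.4 FPKM (-1.05 ± 0.16), Igfbpl1 from 5.87 and 7.68 FPKM to 2.36 and 2.32 FPKM (-1.21 ± 0.15), and Calb2 (calretinin), present in immature granule cells and in some interneurons, from 72.6 and 62.2 FPKM to 27.4 and 33.2 FPKM (-1.13 ± 0.23). Calb2 is also on the list of 15 ventral markers, where it was the only member called. The call of Calb2 was lost whichever of the 4 VH libraries was left out (adjusted p from 0.0636 to 0.156), and that of Dcx without either P28 library (up to 0.0824). Neurod1, which acts slightly later in granule cell differentiation, was at 32.4 and 43.3 FPKM and then 27.1 and 26.4 FPKM and was not called (-0.47 ± 0.16, adjusted p = 0.132). Fabp7, a lipid carrier of radial glia and young astrocytes that the list also holds, fell by -1.03 ± 0.09.

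**Figure D3:**
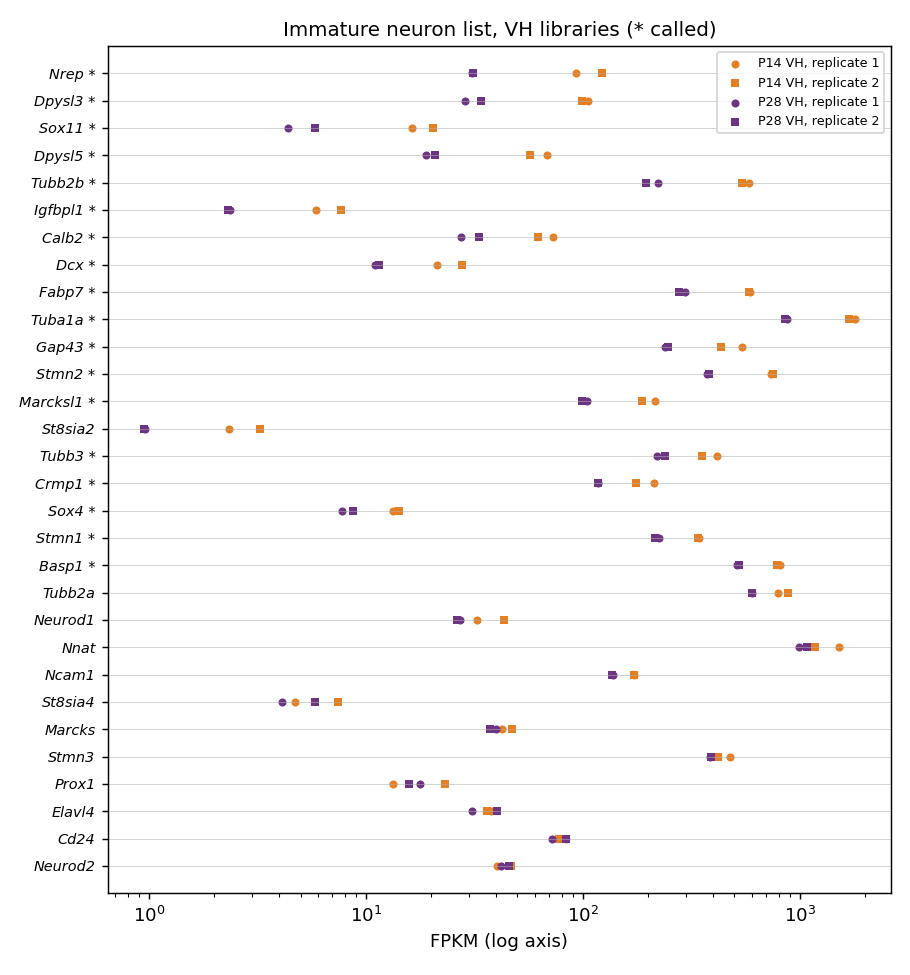
Level of the 30 tested members of the immature neuron list in each VH library, on a log axis of FPKM. Circles are replicate 1 and squares replicate 2, orange is P14 and purple P28, and an asterisk marks the 18 called lower. Purple points lie to the left of orange ones in all 18 called genes, and the ages mix in genes such as Prox1 and Neurod2.

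Cell division genes gave a single call. Of 34 members tested 1 fell, Top2a (DNA topoisomerase of dividing cells), from 1.35 and 1.45 FPKM to 0.442 and 0.544 FPKM (-0.68 ± 0.13, adjusted p = 0.0254), and its call was lost whichever VH library was left out (adjusted p from 0.0755 to 0.128). The median of the list was -0.30, and 31 of the 34 members were lower at P28, against 49.1% of all transcripts. Mki67, the usual marker of cycling cells, was at 1.26 and 1.17 FPKM and then 0.852 and 0.714 FPKM (-0.31 ± 0.09, adjusted p = 0.0799). Dnmt3a, the enzyme that sets new DNA methylation in postnatal neurons, fell by -1.43 ± 0.09 (adjusted p = 0.000832), from 36.4 and 35.7 FPKM to 11.9 and 13.7 FPKM, the only call among 28 regulators of chromatin and RNA. Hes6, a factor that favours neuronal differentiation, was the only one of 16 members of the Notch pathway to be called, with a fall of -0.62 ± 0.10. Dnmt3a was called whichever VH library was left out, and Hes6 was lost without replicate 1 of P14 or either P28 library (adjusted p up to 0.085).

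Single genes of the matrix, vessel wall and axon guidance were called lower. Among 24 tested genes of the perineuronal net and brain matrix, 2 fell, Tnc and Reln, and 1 rose, Hapln2, described above. Tnc (tenascin-C), a matrix protein of immature astrocytes, went from 4.30 and 5.89 FPKM to 1.58 and 1.22 FPKM, a fall of -1.34 ± 0.17 (adjusted p = 0.00604). Reln (reelin), secreted by Cajal-Retzius cells and interneurons, fell by -0.67 ± 0.15, though not once any 1 VH library was left out (adjusted p from 0.0706 to 0.206). Of 9 tested basement membrane genes 3 fell, where 1.12% of all transcripts were called lower. These were Col4a1 (-1.11 ± 0.11), Nid2 (-1.06 ± 0.12) and Agrn (-0.71 ± 0.16), and the list's median was -0.34. In axon guidance 2 of 42 fell, Plxnd1 by -0.91 ± 0.16 and Sema3a by -0.77 ± 0.11, the latter from only 1.08 and 1.33 FPKM. Their median was -0.04. Tnc, Col4a1 and Nid2 were called whichever VH library was left out, while Agrn was lost in 3 of the 4 cases (adjusted p up to 0.175), Plxnd1 in all 4 (up to 0.114) and Sema3a without replicate 2 of P28 (0.0618). The perineuronal net proteoglycans Acan (-0.12 ± 0.16) and Bcan (-0.11 ± 0.10) were not called.

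Endothelial and pericyte markers were read out by a list of their own. Of 25 tested 5 fell and 1 rose, against 1.12% of all transcripts called lower and 1.28% called higher, with a median of -0.26. Cldn5, the tight junction protein of brain endothelium, went from 80.6 and 81.8 FPKM to 51.5 and 54.4 FPKM (-0.61 ± 0.09, adjusted p = 0.012). Rgs5, a pericyte gene, went from 67.5 and 81.0 FPKM to 41.9 and 43.2 FPKM (-0.78 ± 0.09). Kdr (the VEGF receptor), Tie1 and Cdh5 fell by -0.78 ± 0.12, -0.81 ± 0.17 and -0.77 ± 0.17. With 1 VH library left out between 1 and 4 of the 5 falls were left. Rgs5 was called in every case, whereas Tie1 was lost in all 4 (adjusted p up to 0.175) and Cldn5, Kdr and Cdh5 in 3 each, all except the omission of replicate 2 of P14 (up to 0.0824, 0.0729 and 0.171). The member that rose was the organic anion transporter listed as Slco1a2, by 1.09 ± 0.12. The list's summed level was 344 and 354 FPKM at P14 and 271 and 292 FPKM at P28, and whether fewer vessel cells have a part in the falls of the basement membrane genes was not tested. Cd93, a receptor of growing endothelium outside the list, fell by -1.29 ± 0.14, from 8.285 and 8.49 FPKM to 2.48 and 3.21 FPKM.

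The ionotropic glutamate receptor and GABA-A receptor lists gave 1 call each, where 2.41% of all transcripts were called in either direction. Of 26 tested ionotropic glutamate receptor genes none rose and 1 fell, Cacng4 (an auxiliary AMPA receptor subunit), by -0.66 ± 0.10. The NMDA receptor subunits Grin2a and Grin2b, whose balance shifts in the developing forebrain, differed by 0.37 ± 0.18 (adjusted p = 0.301) and 0.01 ± 0.21. Grin2a stood at 26.4 and 36.5 FPKM and then 36.4 and 44.6 FPKM, so that the ages overlapped. Among 29 GABA-A receptor and chloride transport genes 1 was called, Slc12a2 (NKCC1, the chloride importer), which rose by 0.73 ± 0.13 (adjusted p = 0.0226), from 11.3 and 15.6 FPKM to 23.0 and 22.6 FPKM. The call of Cacng4 was lost whichever VH library was left out (adjusted p from 0.0501 to 0.0854), and that of Slc12a2 in 3 of the 4 cases, all but the omission of replicate 2 of P14 (up to 0.112). NKCC1 is also made by oligodendrocytes, and neurons and glia cannot be told apart in these libraries. Slc12a5 (KCC2, the neuronal chloride exporter) was at 80.2 and 75.7 FPKM and then 91.5 and 93.0 FPKM (0.24 ± 0.06, adjusted p = 0.0735).

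Of 39 sodium and potassium channel genes tested, 30 were higher at P28 by any amount, against 49.4% of all transcripts, with a median of 0.19. An adjusted p under 0.05 was reached by 9 of them, against 5.55% of all transcripts, and 2 passed the fold limit as well, against 1.28% called higher overall. Scn4b, the beta subunit that supports fast repetitive firing, rose by 1.301 ± 0.175 from 1.65 and 1.05 FPKM to 5.01 and 4.51 FPKM (adjusted p = 0.00738). Its call was lost without replicate 1 of P28 (adjusted p = 0.0573). Differences of Kcnab1 (0.58 ± 0.08), Kcna1 (0.55 ± 0.11) and Scn2b (0.53 ± 0.07) had adjusted p-values of 0.00738, 0.0291 and 0.00738 but stayed under 1.5-fold. Pvalb (parvalbumin), the calcium buffer of fast-spiking interneurons, was likewise at 79.1 and 86.4 FPKM and then 124 and 115 FPKM (0.52 ± 0.11, adjusted p = 0.0394).

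Interneuron and synapse lists gave at most 2 calls each, where 1.12% of all transcripts were called lower and 1.28% higher. Of 27 interneuron genes only Cort (cortistatin), a peptide related to somatostatin, was called, with a fall of -1.73 ± 0.37 (adjusted p = 0.0383) from 34.9 and 29.96 FPKM to 11.8 and 6.93 FPKM, and its call was lost whichever VH library was left out (adjusted p from 0.0796 to 0.174). Sst itself was at 202 and 196 FPKM and then 170 and 208 FPKM (-0.08 ± 0.16). Of 37 synaptic vesicle genes 2 fell, Slc17a6 (the vesicular glutamate transporter of immature and subcortical neurons) by -0.68 ± 0.13 and Unc13c by -0.88 ± 0.13. Snap25, a core protein of vesicle fusion, went from 671 and 709 FPKM to 949 and 1007 FPKM, a difference of 0.50 ± 0.07 (adjusted p = 0.00662) just under the fold limit. In the 38 genes of long-term potentiation signalling 1 rose, Camkk1 (a kinase upstream of CaM kinases), by 0.76 ± 0.10, with a list median of 0.06. Of 15 serotonin receptors 1 rose, Htr1f, by 0.85 ± 0.14 from 1.199 and 0.784 FPKM to 2.36 and 2.76 FPKM. Each of these single calls was lost in 1 or more of the 4 omissions of a VH library, with adjusted p up to 0.122 for Slc17a6, 0.0703 for Unc13c, 0.0523 for Camkk1 and 0.101 for Htr1f, always including the omission of replicate 1 of P28. No member was called among 10 metabotropic glutamate receptor genes, 34 postsynaptic scaffold genes, 15 acetylcholine receptor genes, 16 dopamine, adrenergic and opioid receptor genes, or 42 neuropeptides and their receptors.

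Glia other than oligodendrocytes changed in single genes. Of 29 astrocyte genes 2 rose and 1, Tnc, fell. Slc1a2, an astrocyte glutamate transporter, is counted by its most abundant transcript, which was not called (0.12 ± 0.10), while a minor transcript, NM_001035233, named after its values were seen, fell by -0.60 ± 0.12 from 18.4 and 19.7 FPKM to 12.1 and 12.2 FPKM. That call was lost whichever VH library was left out (adjusted p from 0.0866 to 0.129), and the gene's summed level differed by 0.10. Gjb6 (connexin 30), an astrocyte gap junction protein, rose by 1.06 ± 0.21 and S100b by 0.81 ± 0.09, the latter from 514 and 563 FPKM to 978 and 916 FPKM (adjusted p = 0.00407). S100b was called whichever VH library was left out, and Gjb6 was lost in 3 of the 4 cases, all but the omission of replicate 2 of P14 (up to 0.153). S100b is also present in oligodendrocytes. Gfap was at 201 and 256 FPKM and then 225 and 180 FPKM, so that the ages overlapped. Of 27 microglia and complement genes 1 rose and 1 fell. Ctss, a lysosomal protease of microglia, rose by 1.13 ± 0.17 from 40.7 and 45.6 FPKM to 111 and 82.2 FPKM, and was lost without replicate 1 of P14 or of P28 (adjusted p up to 0.0656), while the microglial receptor Cx3cr1 differed by -0.08 ± 0.13. C4b fell by -1.03 ± 0.23 and was under 2 FPKM in every VH library, its call was lost in 3 of the 4 omissions (adjusted p up to 0.175), and its reads may be shared with a near copy.

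Blood and cells of neighbouring tissue were also read out by lists. Of 11 tested blood cell genes 2 rose, both globins. Hbb-b1 went from 31.8 and 12.2 FPKM to 69.0 and 92.1 FPKM (1.96 ± 0.41, adjusted p = 0.0356) and Hba2 from 99.4 and 135 FPKM to 253 and 372 FPKM (1.40 ± 0.29, adjusted p = 0.0344), and globin genes are near copies of each other. Without 1 VH library at most 1 of the 2 globins was called, with adjusted p up to 0.16 for Hbb-b1 and 0.159 for Hba2. Of 19 choroid plexus genes Enpp2, which the myelin list also holds, rose and Wfdc2 fell by -1.46 ± 0.30, a call lost in 3 of the 4 omissions (adjusted p up to 0.14). Ttr, the defining transcript of choroid plexus, was at 5.82 and 18.8 FPKM at P14 and 25.7 and 11.7 FPKM at P28, so that the libraries of both ages overlapped. None of 20 meningeal and interstitial collagen genes or 15 ependymal genes was called.

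Hormone, clock and energy genes gave at most 2 calls a list. Of 17 glucocorticoid response genes 15 were higher at P28 by any amount, against 49.4% of all transcripts, with a median of 0.30, but only Sult1a1 was called higher (1.201 ± 0.230). Lcn2 (lipocalin 2), of the same list, fell by -1.72 ± 0.20 from 3.01 and 4.235 FPKM to 0.266 and 0.524 FPKM (adjusted p = 0.00442). Fkbp5, a co-chaperone that glucocorticoids induce, was at 23.0 and 25.6 FPKM and then 33.8 and 34.6 FPKM (0.48 ± 0.10, adjusted p = 0.0321, under 1.5-fold). Of 15 clock genes 12 were higher at P28, and Nr1d2 was the only one called, by 0.64 ± 0.14, and its call was lost whichever VH library was left out (adjusted p up to 0.205). Lcn2 was called in all 4 cases and Sult1a1 in 1 of them (up to 0.125). Slc16a1 (MCT1), which carries lactate and ketone bodies, went from 53.7 and 56.1 FPKM to 28.2 and 27.5 FPKM, a fall of -0.95 ± 0.09 (adjusted p = 0.0022) and the only call among 25 glycolysis and lactate genes, of which 6 had an adjusted p under 0.05. Ldha differed by -0.38 ± 0.04 (adjusted p = 0.00284), under the fold limit. Of 51 tested subunits of the mitochondrial respiratory chain none was called, and 39 were lower at P28, against 49.1% of all transcripts, with a median of -0.11. Of the 51 tested, 27 were lower at P28 with libraries that did not overlap, against 23.3% of all transcripts tested.

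**Figure D4:**
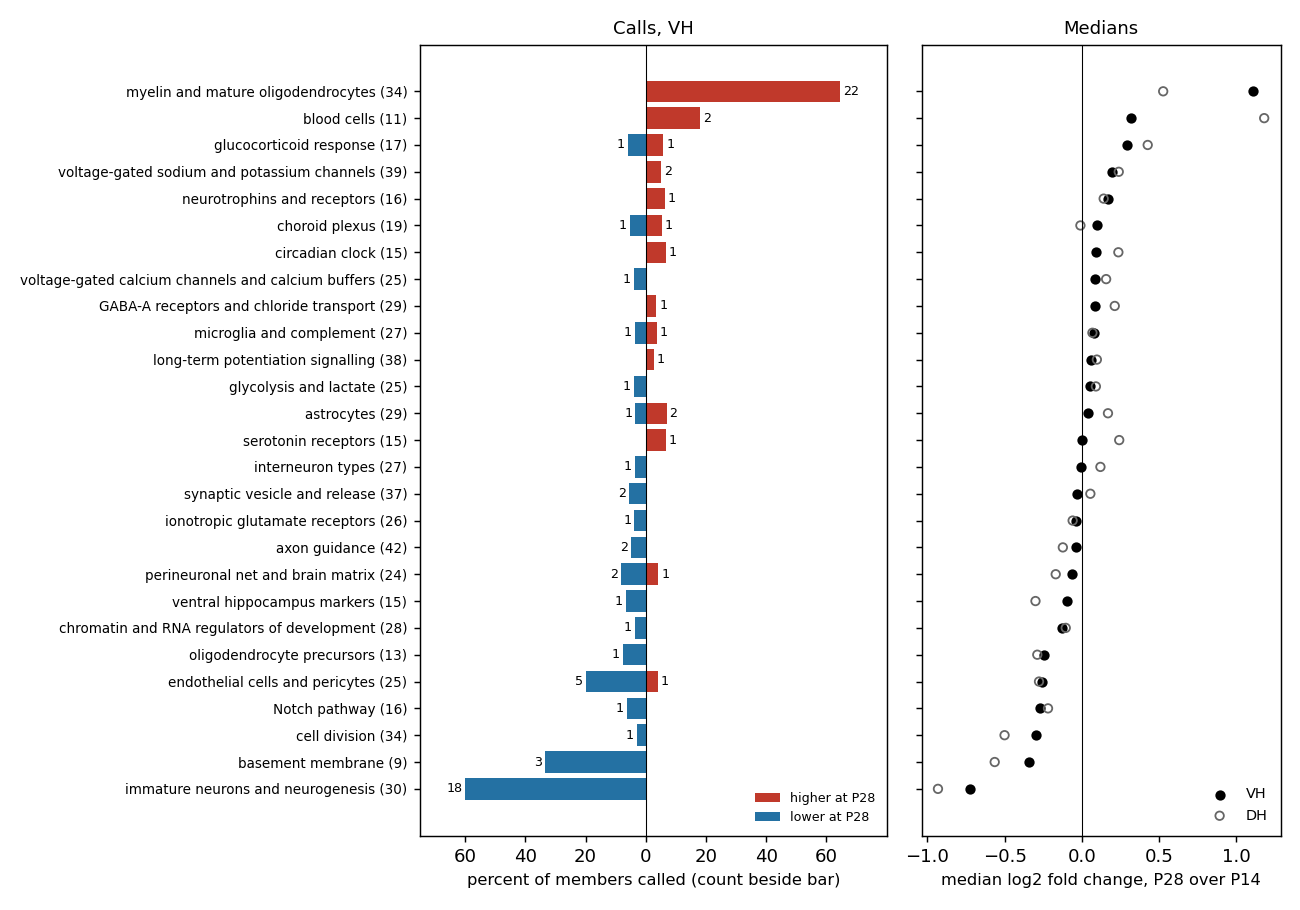
Calls and medians for the 27 of 45 gene lists with at least 1 call in the ventral hippocampus. Left, bars give the percent of tested members (number in brackets) called higher (red) or lower (blue) at P28, with the count beside each bar. Right, the median log2 fold change of each list from P14 to P28 in VH (filled) and DH (open). The myelin list (22 of 34 higher) and the immature neuron list (18 of 30 lower) stand at the opposite ends.

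Several of the largest changes were in genes not yet described. Ptgds, a prostaglandin synthase made by oligodendrocytes and the meninges, went from 22.4 and 30.1 FPKM to 241 and 170 FPKM, a rise of 2.92 ± 0.26 (adjusted p = 0.00187). Klk6, a secreted protease of oligodendrocytes, rose by 2.47 ± 0.24 from 0.983 and 1.93 FPKM to 12.5 and 12.1 FPKM. Tf (transferrin), the iron carrier that oligodendrocytes make, rose by 2.31 ± 0.19 from 15.99 and 17.7 FPKM to 100.3 and 76.2 FPKM. Car14, a carbonic anhydrase, rose by 1.98 ± 0.22 from below 1 FPKM. Among the falls were Tmsb10, an actin-binding thymosin of growing neurons, from 1204 and 1176 FPKM to 491 and 460.1 FPKM (-1.32 ± 0.10), the protease Adamts18 (-1.32 ± 0.12) and the potassium channel subunit Kcne5 (-1.33 ± 0.28). Of these, only Kcne5 lost its call with a VH library left out, in 3 of 4 cases (adjusted p up to 0.162). In all, 147 of the 183 rises and 118 of the 160 falls belonged to none of the 45 lists.

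Some calls were of 1 transcript of a gene that has several. Of 26 genes with several tested transcripts and at least 1 call, 12 were called the same way when their transcripts were summed and 14 were not called. Stmn4, a stathmin of neurons, had 6 tested transcripts. NM_001270855 rose by 3.07 ± 0.65, from 0.0202 and 2.21 FPKM to 18.2 and 10.9 FPKM, while the summed level of the gene went the other way, from 299.9 and 300.0 FPKM to 224 and 211 FPKM, a difference of -0.46 ± 0.06 (adjusted p = 0.00232). Sult5a1 NM_001201369 was at or near 0 in both P14 libraries and at 4.88 and 3.71 FPKM at P28 (adjusted p = 0.0377), while the gene's summed level went from 0.441 and 1.74 FPKM to 4.88 and 3.71 FPKM, a difference of 1.41 ± 0.42 that was not called (adjusted p = 0.0817). Acyp1 NM_001199168 was likewise near 0 at P14 and at 5.28 and 3.03 FPKM at P28, with a summed difference of 0.31 ± 0.20. The calls of the Sult5a1 and Acyp1 transcripts were lost whichever VH library was left out (adjusted p up to 0.163 and 0.171), and that of the Stmn4 transcript in 3 of 4 cases (up to 0.175).

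In Mbp (myelin basic protein), a main protein of central myelin, the transcripts did not move alike either. NM_017026, its most abundant transcript, rose by 1.84 ± 0.23 from 292 and 408 FPKM to 1381 and 1106 FPKM (adjusted p = 0.00527). NM_001025294 was at 84.0 and 109 FPKM and then 77.2 and 58.3 FPKM (-0.50 ± 0.23, adjusted p = 0.271), and the other 4 had differences between 0.38 and 1.04 with none called. Summed over its 6 transcripts Mbp rose by 1.23 ± 0.21. Arpp21 and Epb41l1, named after their values were seen, each had 1 transcript that rose, by 1.01 and 1.07, with summed differences of 0.04 and 0.00. The call of Arpp21 was lost without replicate 1 of P28 (adjusted p = 0.0523), and that of Epb41l1 without either P28 library (up to 0.0832). How the quantification divides reads among overlapping transcripts bears on all of these values and was not tested.

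The same step was measured in the DH with separate libraries, and its calls are set beside those of VH. Both sets of calls use the same estimate of each transcript's spread, so they are not independent. In DH 216 transcripts were higher and 283 lower at P28 (1.51% and 1.98% of those tested). Of the 183 rises in VH, 89 were called higher in DH (48.6% of the VH calls and 41.2% of the DH calls). Of the 160 falls in VH, 99 were called lower in DH (61.9% of the VH calls and 35.0% of the DH calls). Transcripts called in VH had the same sign in DH in 172 of 183 rises and 152 of 160 falls. The share with the same sign over all transcripts was not computed. In 1 case the calls were opposite, Slc19a3 (a thiamine transporter), which fell in VH from 1.44 and 1.59 FPKM to 0.545 and 0.536 FPKM and rose in DH from 1.11 and 1.45 FPKM to 2.88 and 2.36 FPKM, though the difference of the changes itself did not pass (adjusted p = 0.251) and the fall in VH was lost whichever VH library was left out.

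A direct test of whether the change differed between the regions called 2 of 14259 transcripts (0.014%), and 932 had an unadjusted p under 0.05. Both were at low level. Cthrc1 NM_001271300 went from 0.639 and 0.487 FPKM to below 0.001 FPKM in VH and from near 0 to 0.430 and 0.527 FPKM in DH, a difference of -1.21 ± 0.08 (adjusted p = 0.00964). The other Cthrc1 transcript, NM_172333, fell in VH from 2.65 and 3.25 FPKM to 0.525 and 1.21 FPKM. The p-value of NM_001271300 rests on 2 groups at or near 0, VH at P28 and DH at P14, and no conclusion is drawn from it. Under several other settings no transcript was called (given in the closing section). Tnp2, a sperm nuclear protein, was listed at 0 in all P14 libraries and in DH at P28, and at 0.547 and 0.537 FPKM in VH at P28 (difference 0.62 ± 0.06, adjusted p = 0.0318). It was at 0 again in both P45 VH libraries, so within VH only the P28 libraries brought it past the filter. Its p-value rests on groups listed at exactly 0, and no conclusion is drawn from it.

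No member of the myelin list passed that test, the lowest adjusted p being 0.496. The median change of the list was 1.11 in VH and 0.53 in DH, 11 members were called in DH against 22 in VH, and 32 of 34 had the larger change in VH. The summed level of the 34 transcripts was 1447 and 2044 FPKM in VH and 4126 and 3285 FPKM in DH at P14, and 5586 and 4610 FPKM in VH and 6208 and 5565 FPKM in DH at P28. Both VH libraries lay below both DH libraries in 32 of 34 members at P14, against 22.7% of all transcripts, and in 13 of 34 at P28, against 23.3%. Mal, for example, was at 79.1 and 62.9 FPKM in DH at P14, above both VH libraries of that age. In the immature neuron list the median change was -0.73 in VH and -0.93 in DH, with 18 and 23 falls. Cort fell in VH by -1.73 and differed in DH by -0.48 (adjusted p = 0.5), and Htr1f rose in VH by 0.85 and differed in DH by -0.17, and neither passed the test of the difference between regions (adjusted p = 0.754 and 0.387).

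**Figure D5:**
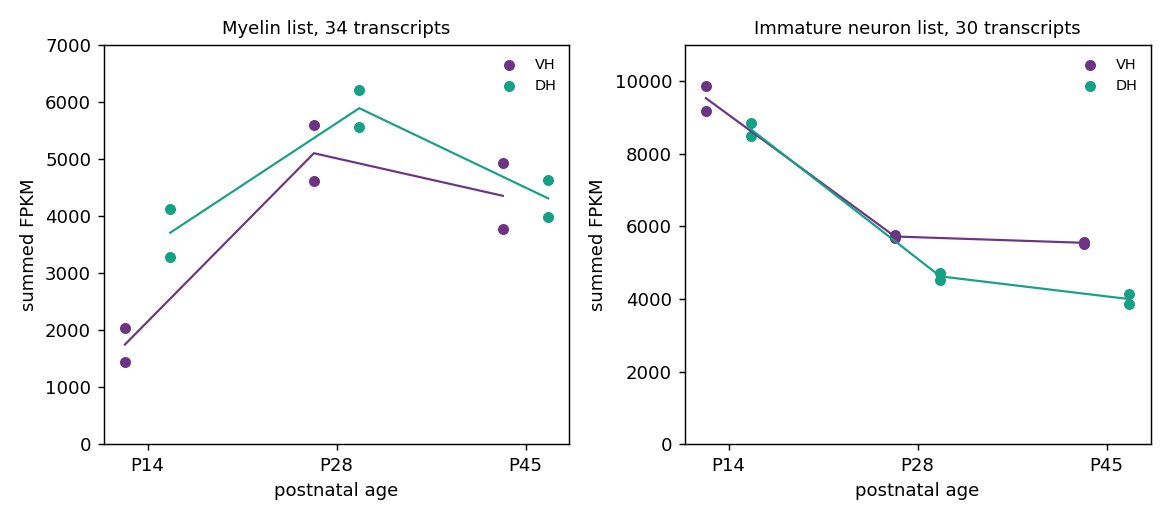
Summed FPKM of the 34 myelin transcripts and the 30 immature neuron transcripts in each library at P14, P28 and P45. Points are libraries, lines join group means of 2 libraries, and VH is purple and DH green. The VH myelin sum climbs from 1447 and 2044 FPKM at P14 to 5586 and 4610 FPKM at P28, and the VH immature neuron sum drops from 9865 and 9186 FPKM to 5674 and 5763 FPKM.

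After P28 few VH transcripts were called. Between P28 and P45, a comparison that shares the P28 libraries with the step described here, 3 transcripts were higher and 2 lower (0.021% and 0.014% of those tested). The myelin list had a median of 1.11 over the first step and -0.08 over the second, and its summed level at P45 was 4929 and 3775 FPKM. The immature neuron list had medians of -0.73 and -0.20, with 5524 and 5565 FPKM at P45. Bmp4, the transcript with the largest called fall by P28, had a second-step difference of 2.21 that was not called, and Calb2 had one of -1.10.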

How the data were processed

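Poly-A RNA of dorsal and ventral hippocampus at P14, P28 and P45 was sequenced by the authors as stranded paired-end libraries, 2 per group. The study's methods name TopHat2 alignment to the rat build rn5, HT-seq counts, edgeR, and a TMM scaling (a trimmed-mean library factor) of the FPKM, and the submitters' processing notes list TopHat2 2.0, Bowtie2 2.1.0, SAMtools 0.1.19, Cufflinks 2.2.1 and R 3.3.0. The deposited values are FPKM per transcript. The table holds 3027 values above 0 and below 0.001 FPKM, so whole reads could not be recovered and no count test was run. Which tool made these values, and whether they are the TMM-scaled ones, is not given in the sources used here. If reads were divided among overlapping transcripts by estimation, values of single transcripts depend on it. The study lists mapped pairs per library, which are not used here, and the reads behind each transcript's value are not known.

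Of 17933 transcripts listed, 14259 that were above 0 in at least 2 of the 12 libraries were tested as log2(FPKM + 1), with a pseudocount of 1. The 27 entries without a symbol were kept as listed and none is named. One limma 3.58.1 fit (R 4.3.3, eBayes with a trend, 6 residual degrees of freedom) of all 6 groups gave two-sided p-values with Benjamini-Hochberg adjustment over all transcripts tested. Transcripts were called where the fold change exceeded 1.5 and the adjusted p was below 0.05. For the difference between regions only the latter was required. Errors of changes are standard errors. The procedure was tested on simulated data.

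The comparison and the 45 gene lists with their members were chosen with earlier results of these data known. Named transcripts are members of these lists, led by up to 4 called members per list and direction with the largest change (or the 2 largest where none was called), the 15 largest rises and 15 largest falls with libraries that did not overlap, and the 10 lowest adjusted p-values of the difference between regions. Groups come from the sample labels. Correlations of deviations between libraries of the same replicate number were weak (between -0.084 and 0.111), so the fit has no block. RefSeq held 16928 of the identifiers (94.4%). Alternatives varied the pseudocount, filter, scaling, libraries fitted, block, trend, threshold, summing of transcripts and libraries left out. Some members counted in the lists are not reported here by name, and they are left out of the plot of myelin genes by library.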

Additional observations from a re-analysis of the deposited data

Results flagged for a closer look

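For 2 transcripts the change from P14 to P28 differed between VH and DH by limma's test of the interaction of age and region. Cthrc1 NM_001271300 fell in VH and was higher at P28 in DH, with a difference of -1.21 on the log2 scale (adjusted p = 0.00964). This p-value rests on groups at or near 0, VH at P28 and DH at P14. With the transcripts of each gene summed, 0 differences between regions were called. Tnp2 was above 0 at P28 in VH only, among the 8 libraries of P14 and P28, with a difference of 0.62 (adjusted p = 0.0318). It was also at 0 in both P45 VH libraries, so within VH only the high group brought it past the filter. Its p-value therefore cannot decide whether the regions differ. Both transcripts lay below 1 FPKM in each of the 8 libraries of P14 and P28, and neither was tested with a mean of at least 1 FPKM required. With 2 libraries in each group, single libraries that stand apart from their group could not be tested for.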

How the results depend on the processing

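Against 183 rises and 160 falls, the counts stayed within 1.5 times with a pseudocount of 0.1 (197 and 178), a mean of at least 1 FPKM (230 and 182), median-ratio scaling (182 and 160), quantile normalization (195 and 170), no trend (175 and 154) and summed transcripts (198 and 170). Without a filter on low values there were 121 rises and 116 falls, with adjusted p under 0.01 there were 67 and 60, and with a test against a fold change of 1.5 there were 7 and 7. A limma fit of only the groups compared called 0 and 0, with 323 and 289 at an unadjusted p under 0.05 and a fold over 1.5. Leaving out 1 VH library gave 74 to 199 rises and 70 to 149 falls, where the lone library left in a group was assumed to vary like the other groups. Against 2 differences between regions there were 20 without a filter, 1 with quantile normalization, 1 without a trend, and 0 with a mean of at least 1 FPKM, with summed transcripts and in a fit of only the groups compared (680, 843 and 921 at an unadjusted p under 0.05). Leaving out 1 library gave 3 to 9. With the replicate block the counts were 183 and 146, and 0 differences between regions, also with the replicate block within each age (970 and 1073 at an unadjusted p under 0.05). Deviations of libraries with the same replicate number correlated at 0.008 between P14 and P28 in VH. Between DH and VH of 1 age they correlated at 0.075 (P14), 0.098 (P28) and 0.111 (P45), the highest of all pairs of groups. Whether DH and VH libraries of the same number share an animal is not given in the sources used here. Of 179 named transcripts, 168 kept direction and call under the block and 8 were no longer called. With transcripts of 1 symbol summed, Epb41l1 (-0.0024), Stmn4 (-0.46) and the minor Slc1a2 transcript (0.10) took the other sign, since other transcripts of each gene enter the sum. The median change of all transcripts stayed between 0.00 and 0.01 in all these settings. The reads behind each value are not known, which limits the values below 1 FPKM most.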
